A study of Saccharomyces cerevisiae with 2 samples.

Results

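The genes described here build the mannose chains of yeast glycoproteins. They are 35 ORFs of *Saccharomyces cerevisiae*, picked by ORF name from the 6207 ORFs of the deposited table: the PMT O-mannosyltransferases, the KRE2 and KTR family, the MNN and MNT mannosyltransferases, OCH1, VAN1, ANP1, HOC1, and VRG4, GDA1, YND1 and PMR1, which supply the Golgi. The array held all 35. Of these, 26 were given a ratio in each of the 2 replicates, 5 in replicate 1 only, and 4 in neither. A value in both replicates was thus given for 74.3% of these genes and for 50.2% of all ORFs.

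The samples were wsc1 mutant cells in the BY4741 laboratory background, grown in YEPD at 24 °C. One part of a divided culture received caspofungin at 15 ng/ml for 2 h, and the other part received none. Caspofungin is an echinocandin that inhibits the synthase of β-1,3-glucan, and Wsc1 is a plasma membrane sensor of wall stress. Both RNAs of each array carried the wsc1 mutation and the marker gene mutations of BY4741, no WSC1 wild type was included, and the sources used here do not say what the wsc1 allele is. The labels mention 2 cultures and 4 arrays, whereas the table holds 2 columns whose relation to the cultures is not stated. The spread between them may therefore be technical, and with so few arrays the precision is limited.

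Protein O-mannosylation begins in the endoplasmic reticulum (ER), where Pmt enzymes move mannose from dolichol phosphate mannose onto serine and threonine of secretory proteins. Golgi enzymes of the Kre2/Ktr and Mnn1 families lengthen these short chains with GDP-mannose. On N-linked glycans, Och1 starts an outer chain, the mannan polymerase complexes extend it, and Mnn2 and Mnn5 add branches. The resulting mannoproteins form the outer layer of the cell wall, and wall sensors such as Wsc1 are themselves heavily O-mannosylated.

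Each value is a log2 ratio of the 2 dye channels of an array. In replicate 1 the caspofungin RNA carried Cy3 and in replicate 2 it carried Cy5, so the sign of replicate 1 was turned. The positive side stands for more RNA with caspofungin if the deposited ratio is Cy5 over Cy3, and for less if it is the reverse. The labels do not settle this, so sides rather than increases and decreases are given. They do not settle either that both columns hold the same dye ratio, and values without turning are given where they matter. Means are of the 2 turned log2 ratios, with their SD (n = 2). Across the 3117 ORFs with both values, the turned columns had a Pearson r of 0.29, and their signs matched for 64.1% of ORFs. For the 26 genes with both values the Pearson r was 0.25. Without KTR7 and KRE2, left out after the values were seen, it was -0.26 for the other 24, with a Spearman correlation of 0.05. The column medians over these ORFs were 0.04 in replicate 1 and -0.04 in replicate 2.

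Tested with limma over all ORFs at an adjusted p of 0.05, 0 of the 26 genes and 0 of the 3117 ORFs (0%) passed. The lowest adjusted p among the 26 was 0.366. At an unadjusted p of 0.05, 1 of the 26 was called on the negative side, where 7.76% of all ORFs were called, and 0 on the positive side, against 5.61%. The 26 means had a median of -0.01, beside 0.01 for all ORFs. Of the 26, 13 means were positive and 13 negative, against 52.1% positive and 47.9% negative over all ORFs. The same sign appeared in both replicates for 15 genes (57.7%), 6 on the positive side and 9 on the negative side. In the background of all ORFs, 31.6% had the same positive sign and 32.4% the same negative sign. Thus, as a whole, the genes lay about as all ORFs did in their median and signs, and the description below goes by role.

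**Figure D1:**
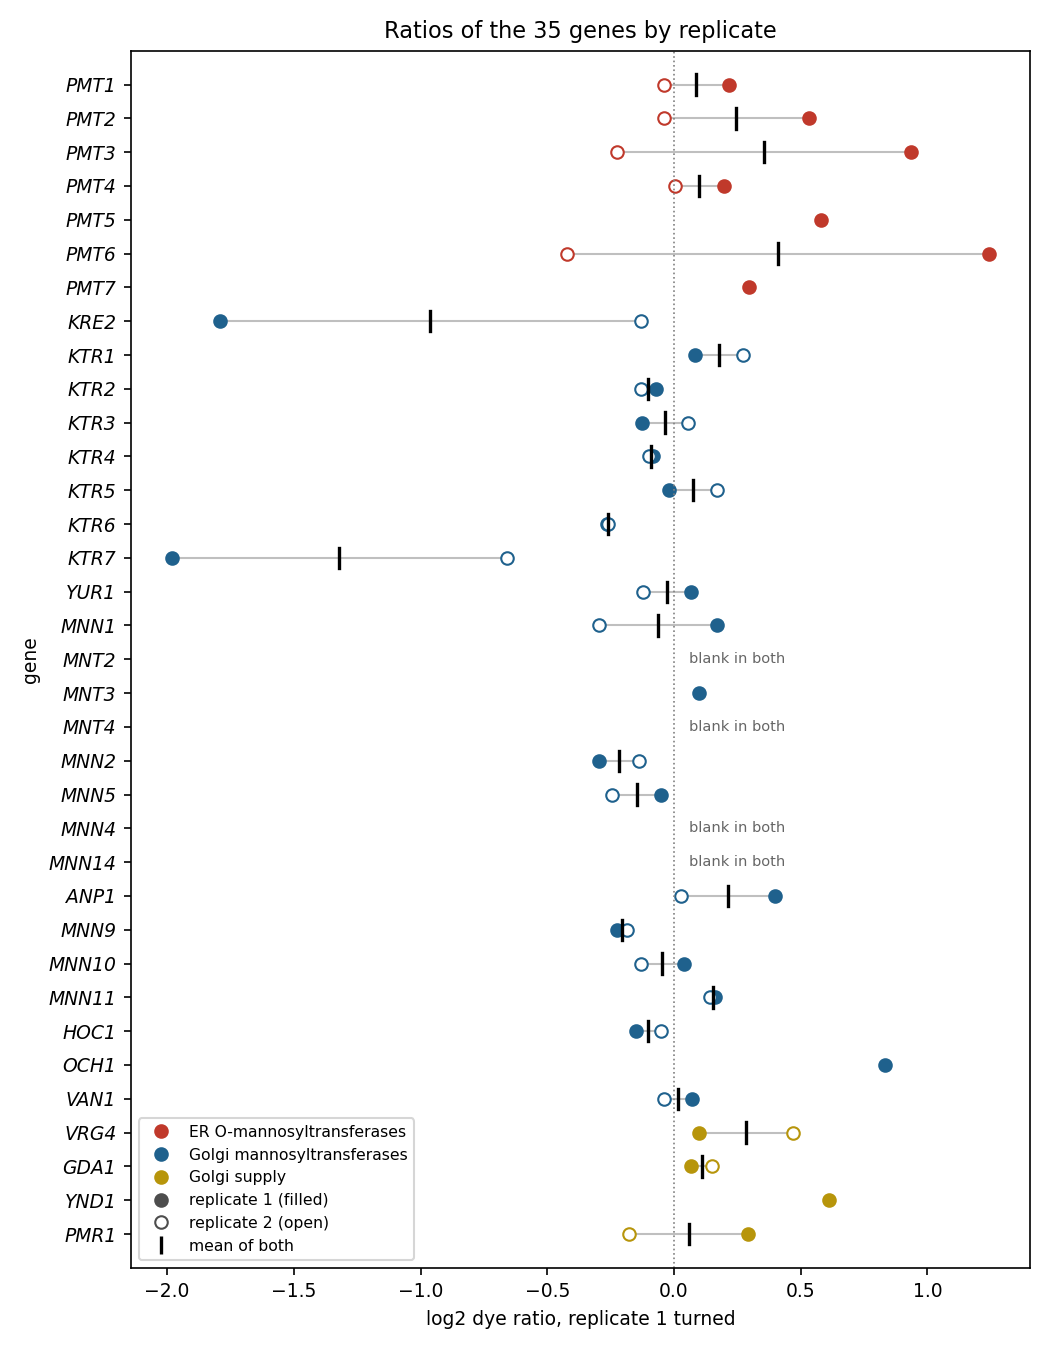
Log2 dye ratio of each of the 35 genes, with replicate 1 turned. Filled circles are replicate 1, open circles replicate 2, black ticks the mean of both, and colours the role. KTR7 and KRE2 lie far on the negative side in replicate 1, and PMT6 and PMT3 far on the positive side in replicate 1 only.

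The ER O-mannosyltransferases lay on the positive side in replicate 1 and near or below 0 in replicate 2. All 7 had a positive turned value in replicate 1, whereas 4 of the 5 with a value in replicate 2 were negative there. PMT5 and PMT7 had a value in replicate 1 only, and of all such ORFs 85.7% were positive. Over all ORFs with both values, 44.6% were below 0 in replicate 1 and 56.2% in replicate 2. The 5 means were all positive, with a median of 0.24, but only 1 gene had the same sign in both replicates. The medians of the single replicates were 0.53 and -0.04.

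PMT6 (YGR199W), a member of the Pmt2 subfamily, had turned log2 ratios of 1.24 in replicate 1 and -0.42 in replicate 2. Its mean of 0.41 ± 1.18 (SD, n = 2) was not past the threshold (limma adjusted p = 0.688). PMT3 (YOR321W), of the same subfamily, had 0.93 and -0.23 (mean 0.35 ± 0.82). PMT2 (YAL023C), which forms the main O-mannosyltransferase complex with Pmt1, had 0.53 and -0.04 (mean 0.24 ± 0.40). In these 3 genes the 2 replicates lay on opposite sides, and the order of size was PMT6, PMT3, PMT2 in both.

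The enzymes outside that subfamily had smaller ratios where both replicates gave one. PMT1 (YDL095W), the partner of Pmt2, had 0.22 and -0.04, with a mean of 0.09 ± 0.18. PMT4 (YJR143C), which acts as a homodimer and prefers membrane-bound substrates, had 0.20 and 0.0039, with a mean of 0.10 ± 0.14. It was the single PMT gene with the same sign in both replicates, although its replicate 2 value was close to 0. PMT5 (YDL093W), which pairs with Pmt3, and PMT7 (YDR307W), a putative family member, were blank in replicate 2 and had 0.58 and 0.30 in replicate 1.

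Before turning, PMT1, PMT2, PMT3 and PMT6 had negative values in both columns. Negative values in both columns were thus seen in 4 of the 5 PMT genes and in 23.7% of all ORFs. Such ratios keep their sign when the dyes are exchanged. The means of the deposited values were -0.83 for PMT6, -0.58 for PMT3, -0.29 for PMT2 and -0.13 for PMT1. If both columns were read as the same treatment ratio, without turning, PMT6 and PMT3 would be at unadjusted p-values of 0.012 and 0.043 in limma, with an adjusted p of 0.999 for each. Under that reading 2.79% of all ORFs were at an unadjusted p of 0.05 on the negative side. A dye effect of these genes and a treatment effect under the other reading cannot be told apart from 2 columns.

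**Figure D2:**
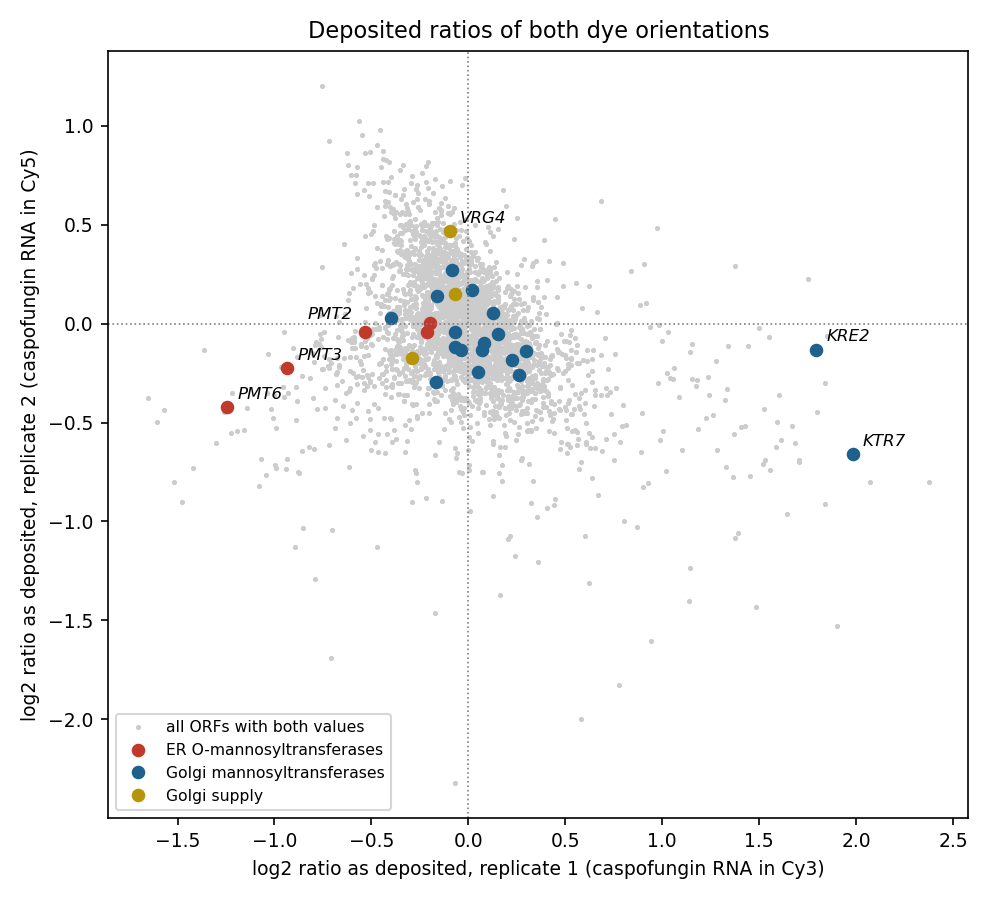
Log2 ratios as deposited, before turning, in replicate 1 (horizontal) and replicate 2 (vertical). Grey points are the 3117 ORFs with both values and coloured points the 26 genes by role. Genes that follow the treatment lie in the upper left or lower right if both columns hold the same dye ratio; PMT6, PMT3 and PMT2 lie in the lower left, and KTR7 and KRE2 in the lower right.

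The KRE2 and KTR family of Golgi α-1,2-mannosyltransferases and putative relatives held the genes with the greatest ratios. All 9 members had both values, 7 means were negative, beside 47.9% of all ORFs, and the median was -0.09. KTR7 and KRE2 stood apart from the other 7, whose means ran from -0.26 to 0.18.

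KTR7 (YIL085C), a putative mannosyltransferase, had turned log2 ratios of -1.98 in replicate 1 and -0.66 in replicate 2. Its mean of -1.32 ± 0.94 (SD, n = 2), a size of 2.50-fold, was the 7th lowest of the 3117 means. The 95% limma interval ran from -2.36 to -0.28. The unadjusted limma p was 0.025 and the adjusted p 0.366. With each column centred on its median, the adjusted p was 0.00202, and 2.92% of all ORFs were called on the negative side and 0.77% on the positive side. The mean of KTR7 stayed at -1.32 under that setting. The prior degrees of freedom of limma set how strongly the variances of single genes are drawn together. They were 17.1 with centred columns and 2.64 as deposited. Of the 26 genes, KTR7 alone had a mean beyond 2-fold and replicates of matching sign, as did 0.962% of all ORFs on the negative side.

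KRE2 (YDR483W), also called MNT1, adds the third mannose of O-linked chains. It had -1.79 in replicate 1 and -0.13 in replicate 2, a mean of -0.96 ± 1.17 (SD, n = 2). The value in replicate 1 was, after that of KTR7, the most negative of the 26, whereas that in replicate 2 lay within the range of the other family members. The limma interval, -2.25 to 0.33, included 0, and the adjusted p was 0.412. With centred columns the adjusted p was 0.044, and with columns also scaled to the same spread it was 0.057. Means beyond 1.5-fold with replicates of matching sign were found for KRE2 and KTR7 among the 26, both on the negative side, and for 3.3% of all ORFs on that side. On the positive side there were 0 of 26, against 0.738%.

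Without turning, the means of KTR7 and KRE2 were 0.66 and 0.83, set by the positive deposited values of replicate 1, and the replicates had opposite signs. In replicate 1, ORFs with a deposited value above 1 had another such ORF close by in the order of names more often than other ORFs did. Large values of the other sign, and those of replicate 2, were not counted in this way. CAB2, at 2 places from KTR7, had turned values of -1.60 and -0.36 in replicates 1 and 2, and SDS3, next to KTR7, had -0.17 and -0.80. On the other side of KTR7, the adjacent YIL086C had -0.19 and -0.09, AIM19 had 0.72 and 0.92, and AVT7 had -0.03 and 0.08. YIL082W-A, at 3 places, had -0.35 and -0.21. Of the 6 neighbours, CAB2 came nearest to KTR7 in replicate 1 and SDS3 in replicate 2, and AIM19 lay on the opposite side in both. VPS60, at 3 places from KRE2, had -1.59 and -0.62. The other measured neighbours of KRE2 were closer to 0 in replicate 1, with 0.02 for DIG2, -0.0013 for PHO8 and 0.25 for CWC21. The neighbours of KRE2 were examined after its values were seen. Of the 69 ORFs with a deposited value above 1 in replicate 1, 25 (36.2%) had another such ORF within 3 places, against 193 of the other 3636 ORFs (5.31%). KTR7, CAB2, KRE2 and VPS60 are among the 69. The sources used here do not state the layout of the array, and the part of such closeness in the KTR7 and KRE2 values was not tested.

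**Figure D3:**
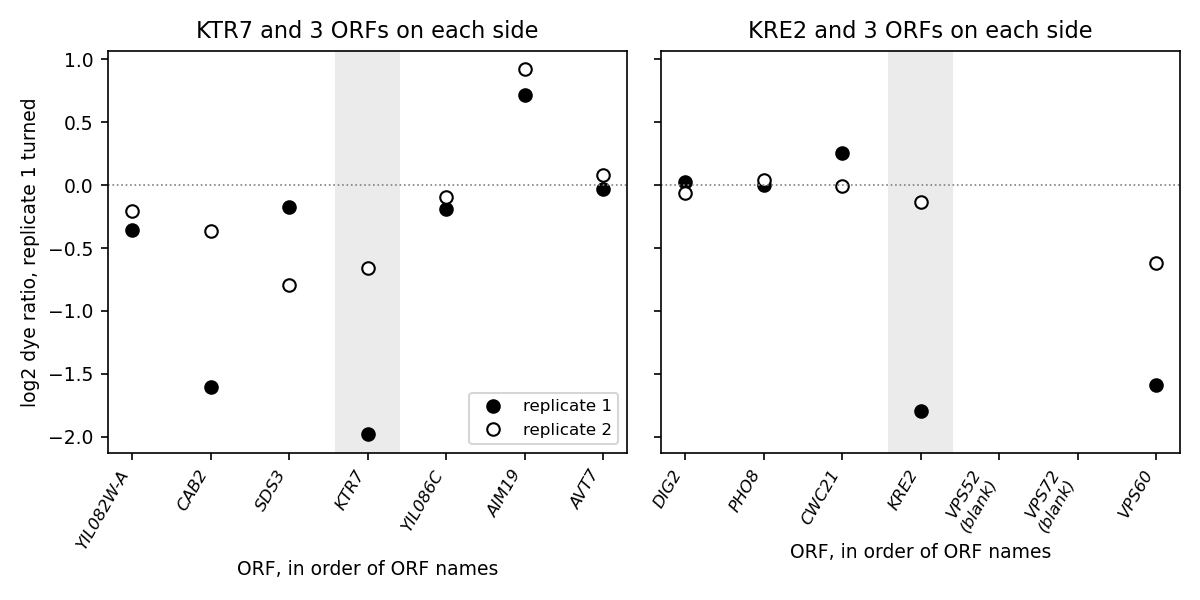
Turned log2 ratios of KTR7 (left) and KRE2 (right), each shaded, with the 3 ORFs on either side in the order of ORF names. Filled circles are replicate 1 and open circles replicate 2. In replicate 1, CAB2 at -1.60 and VPS60 at -1.59 come close to KTR7 and KRE2.

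KTR6 (YPL053C), also called MNN6, transfers mannosylphosphate to wall glycans and had nearly the same value in both replicates, -0.26 and -0.26. Its mean was -0.26 ± 0.0014 (limma adjusted p = 0.386), a size of 1.20-fold. Of all ORFs, 13.3% had a lower mean. KTR2 (YKR061W), which acts on N-linked glycans, had -0.07 and -0.13. KTR4 (YBR199W), a putative mannosyltransferase, had -0.08 and -0.10. These 3 genes were on the negative side in both replicates, within 1.5-fold.

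KTR1 (YOR099W), which shares O-chain extension with Kre2 and Ktr3, was the family member on the positive side in both replicates, with 0.08 and 0.27. KTR3 (YBR205W), the third of these enzymes, had -0.13 and 0.05. KTR5 (YNL029C), a putative mannosyltransferase, had -0.02 and 0.17, and YUR1 (YJL139C), a further family member, had 0.07 and -0.12. The replicates of the last 3 lay on both sides of 0. Apart from KTR7 and KRE2, the greatest value in the family was the 0.27 of KTR1 in replicate 2. The 3 enzymes that overlap in O-chain extension, KRE2, KTR1 and KTR3, thus had means of -0.96, 0.18 and -0.04. Family members are related in sequence, and how far their probes share signal was not tested.

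The mannan polymerase genes had small ratios on both sides. MNN9 (YPL050C), a subunit of both polymerase complexes, had -0.22 and -0.19, with a mean of -0.20 ± 0.03. VAN1 (YML115C), its partner in the complex that acts first, had 0.07 and -0.04, with a mean of 0.02 ± 0.08. The means were 1.15-fold and 1.01-fold in size.

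The other subunits of the second complex did not share a side. ANP1 (YEL036C) had 0.40 and 0.03 (mean 0.21 ± 0.26), and MNN11 (YJL183W) had 0.16 and 0.14 (mean 0.15 ± 0.01). MNN10 (YDR245W) had 0.04 and -0.13 (mean -0.05 ± 0.12), and HOC1 (YJR075W), a homologue of OCH1, had -0.15 and -0.05 (mean -0.10 ± 0.07). ANP1 and MNN11 were thus positive and HOC1 and MNN9 negative in both replicates, and the adjusted limma p of the 6 genes ran from 0.427 to 0.957. OCH1 (YGL038C), which starts the outer chain, was blank in replicate 2 and had 0.83 in replicate 1, the greatest value on the positive side after PMT6 and PMT3.

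The branching enzymes lay on the negative side in both replicates. MNN2 (YBR015C), which adds the first mannose of each branch, had -0.30 and -0.14, with a mean of -0.22 ± 0.11. MNN5 (YJL186W), which adds the second, had -0.05 and -0.24, with a mean of -0.15 ± 0.14. Neither passed the test, with adjusted limma p-values of 0.428 and 0.572.

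Enzymes that add the last residues were mostly without values. MNN1 (YER001W), the α-1,3-mannosyltransferase that caps O-linked and N-linked chains, had 0.17 and -0.29. Of its relatives, MNT3 (YIL014W) had 0.10 in replicate 1 and was blank in replicate 2, and MNT2 (YGL257C) and MNT4 (YNR059W) were blank in both. MNN4 (YKL201C), a positive regulator of mannosylphosphate transfer, and its paralogue MNN14 (YJR061W) were blank in both as well. Of the genes tied to mannosylphosphate, KTR6 alone could thus be compared.

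Genes that supply the Golgi had positive means. VRG4 (YGL225W), the essential transporter that brings GDP-mannose into the Golgi lumen, had 0.10 and 0.47, with a mean of 0.28 ± 0.26 (limma adjusted p = 0.427). GDA1 (YEL042W), the GDPase that lets the transporter exchange GMP for GDP-mannose, had 0.07 and 0.15, with a mean of 0.11 ± 0.06. Both genes were on the positive side in both replicates, and the mean of VRG4 was the 314th highest of 3117.

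PMR1 (YGL167C), the Golgi pump for calcium and manganese, which mannosyltransferases need, had 0.29 and -0.18 and so no common side. YND1 (YER005W), an apyrase that overlaps with Gda1, was blank in replicate 2 and had 0.61 in replicate 1. The median of the 3 supply genes with both values was 0.11, beside 0.01 for all ORFs.

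All 5 genes that had a value in replicate 1 only, PMT5, PMT7, OCH1, MNT3 and YND1, lay on the positive side there, from 0.10 to 0.83. Across the table, 504 of the 588 ORFs with a value in replicate 1 only (85.7%) were positive, with a median of 0.33. The share was 55.4% among ORFs with both values, so these 5 values followed the pattern of all ORFs that lacked replicate 2. The sources used here do not state the rule by which values were left blank.

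The Golgi mannosyltransferases together had 13 of 18 means on the negative side, beside 47.9% of all ORFs. Their median was -0.08, and 9 of 18 were negative and 3 positive in both replicates. Over all ORFs, 32.4% were negative and 31.6% positive in both. The ER enzymes had 0 of 5 and the supply genes 0 of 3 negative means. The difference between the roles was not tested, and for the ER enzymes the side came from replicate 1. In the order of the 26 means, none of the 25 steps between neighbours was greater than the larger SD of the pair, and in 14 genes the SD was greater than the size of the mean.

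Mannose donors for these enzymes come from a short cytosolic and ER pathway, of which 7 of 9 listed genes had both values and 4 had positive means (median 0.18). Over all ORFs 52.1% of means were positive. DPM1, which makes the dolichol phosphate mannose that Pmt enzymes use, had 0.63 and 0.86, a mean of 0.75 ± 0.17 (limma adjusted p = 0.366, and 0.011 with centred columns). With centred columns 0.77% of all ORFs were called on the positive side. PMI40, phosphomannose isomerase at the entry of the pathway, had 0.21 and 0.37. SEC53, the phosphomannomutase, had -0.19 and 0.04, and PSA1, which makes GDP-mannose, had -0.14 and 0.11. The donor enzymes thus did not share a side: PMI40 and DPM1 were positive in both replicates, and SEC53 and PSA1 had replicates of opposite sign.

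Of the dolichol genes, DFG10, which acts in dolichol synthesis, had 0.22 and 0.31, and CAX4, a dolichyl pyrophosphate phosphatase, had 0.21 and 0.15. RER2, a cis-prenyltransferase, had -0.08 and -0.25. SEC59 and SRT1 were blank in both replicates. None of the 7 genes passed the test over all ORFs.

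N-linked glycans are assembled and transferred by a second set of ER enzymes, of which 18 of the 22 genes on the array had both values. Their median was 0.14, with 11 positive and 7 negative means, beside 52.1% and 47.9% of all ORFs, and 0 passed the adjusted threshold. OST3, a subunit of the oligosaccharyltransferase, had 0.62 and 0.80 (limma adjusted p = 0.366, and 0.014 with centred columns, the 1 call in this list under that setting). Of all ORFs, 0.77% were called on the positive side and 2.92% on the negative side with centred columns. ALG13 and ALG14, partners in the second step of lipid-linked oligosaccharide assembly, had 0.49 and 0.50, and 0.36 and 0.27. On the negative side, OST1 had -1.28 and -0.19, OST4 had -0.51 and -0.22, and ALG5 had -0.38 and -0.21. Like the mannan genes, this set held members on both sides, and OST1 resembled KRE2 in having its large value in replicate 1.

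**Figure D4:**
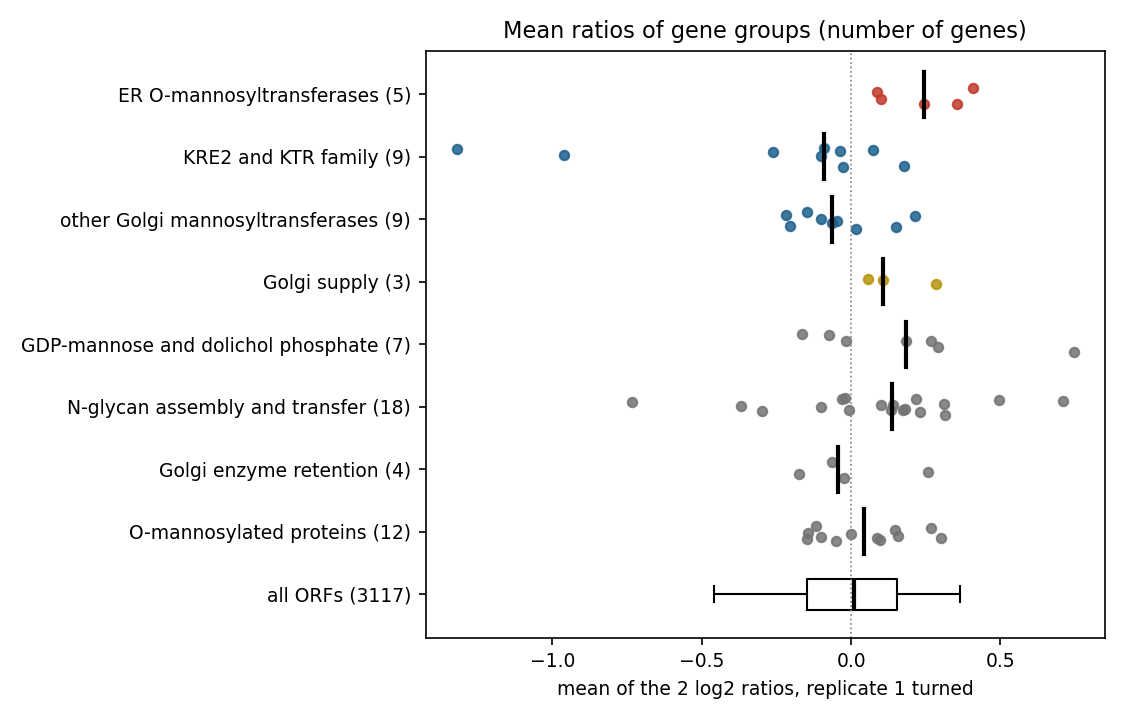
Mean of the 2 log2 ratios, with replicate 1 turned, for each gene with both values (points) by group, with the group median as a black bar. The box shows the median and quartiles of all 3117 ORFs, with whiskers at percentiles 5 and 95. The ER O-mannosyltransferase median is 0.24. KTR7 at -1.32, KRE2 at -0.96 and OST1 at -0.73 lie below the whiskers. PMT6 at 0.41, ALG13 at 0.49, OST3 at 0.71 and DPM1 at 0.75 lie above them.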

How the data were processed

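The authors deposited 1 table with a log2 ratio per ORF for each of 2 two-channel arrays, and the labels name Cy5 and Cy3. That the values are log2 was read from them: 2 raised to each value gave at most 4 decimals for 100% of values (tolerance 0.001 of the last decimal). Background correction, normalization, centring, averaging of spots, the rule for blanks and the direction of the ratio are not stated in the sources used here. Column medians were -0.07 and -0.04 as deposited. Values were used as deposited, without 2 control entries, and replicate 1 was sign-turned for its exchanged dyes. The 3117 ORFs with both values entered an intercept model in limma 3.58.1 (R 4.3.3), whose moderated two-sided test against 0 was adjusted over all ORFs by Benjamini-Hochberg. Signal over background is unknown, because no intensities were used.

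Names came from the RefSeq gene table (R64), which matched 35 of the 35 genes and 5654 of all 6207 ORFs. The 35 genes, the roles and the 4 comparison lists were chosen with earlier results of these data known. All 35 genes are given. Also named are the genes of the mannose donor list, up to 3 genes per side of each other list whose replicates matched in sign, and ORFs within 3 places of a gene beyond 2-fold. The neighbours of KRE2, COG5, COG8, PIR1, PIR3 and the wall sensors were named outside this rule, after their values were seen. The alternatives were the opposite reading of replicate 1, centred or scaled columns, a robust prior, an unmoderated statistic, other ORF and fold limits, and single replicates.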

Additional observations from a re-analysis of the deposited data

How the results depend on the processing

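With centred columns limma called 2 of the genes (KRE2 and KTR7) and 115 ORFs in all, and with centred and scaled columns 1 (KTR7) and 103, against 0 and 0 as deposited. The prior degrees of freedom were 17.1 with centred columns, 15.4 with centred and scaled columns and 2.64 as deposited. The cause of the change in calls was not tested. The count stayed 0 with the opposite reading of replicate 1, the robust prior, the unmoderated statistic and ORFs with at least 1 value. At an unadjusted p of 0.05 there was 1 gene (KTR7) and 417 ORFs. The counts were 2 (PMT6 and PMT3) and 94 under the opposite reading, and 2 (MNN11 and KTR6) and 264 with the unmoderated statistic. There were 2 genes and 467 ORFs with centred columns and 2 genes and 466 ORFs with scaled columns, the genes being KRE2 and KTR7 in each. Beyond 1.5-fold there were 2 genes and 126 ORFs, against 1 and 30 beyond 2-fold and 1 and 61 under the opposite reading. The median of the 26 genes, -0.0059, changed sign to 0.074 with genes of at least 1 value and to 0.036 without KTR7 and KRE2, an alternative chosen after the values were seen. With a replicate left out it ran from -0.11 to 0.067, and those of the ER enzymes from -0.041 to 0.53, the Golgi enzymes from -0.13 to -0.061 and the supply genes from 0.097 to 0.15. Under the opposite reading the medians were -0.29 for the ER enzymes, -0.0036 for the Golgi enzymes and 0.042 for the supply genes, and the last was 0.20 with genes of at least 1 value. The opposite reading also changed the sign of 16 means, to -0.13 for PMT1, -0.29 for PMT2, -0.58 for PMT3, -0.096 for PMT4, -0.83 for PMT6, 0.83 for KRE2, 0.091 for KTR3, 0.00096 for KTR6 and 0.66 for KTR7. The others were 0.078 for MNN2, -0.18 for ANP1, 0.019 for MNN9, -0.0099 for MNN11, 0.049 for HOC1, -0.056 for VAN1 and -0.23 for PMR1. With a replicate left out, means spanned 0 for PMT1 (-0.040 to 0.22), PMT2 (-0.041 to 0.53), PMT3 (-0.23 to 0.93), PMT6 (-0.42 to 1.24), KTR3 (-0.13 to 0.053), KTR5 (-0.020 to 0.17) and YUR1 (-0.12 to 0.067). They also did for MNN1 (-0.29 to 0.17), MNN10 (-0.13 to 0.038), VAN1 (-0.041 to 0.071) and PMR1 (-0.18 to 0.29); the cause was not tested. Single replicates allow no test. Each value is already a ratio of both RNAs of its array, so the test of the ratios against 0 holds that pairing.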

Other observations

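Genes of proteins known to carry O-linked mannose had small means on both sides. Of 19 listed genes on the array, 12 had both values and the median was 0.04. Of these means 7 were positive and 5 negative, beside 52.1% and 47.9% of all ORFs. CIS3, a wall protein with internal repeats, had turned log2 ratios of 0.12 in replicate 1 and 0.48 in replicate 2. BAR1, a secreted protease that degrades α-factor, had 0.40 and 0.13, and FUS1, a membrane protein of cell fusion, had 0.08 and 0.23. On the other side, HSP150, a relative of CIS3, had -0.22 and -0.07, SED1, a GPI-anchored wall protein, had -0.12 and -0.12, and CTS1, a chitinase, had -0.20 and -0.0038. Replicates had opposite signs in 4 of the 12, with the largest values in PIR1 (-0.41 and 0.32) and PIR3 (-0.49 and 0.19). None of the 12 passed the adjusted threshold in limma. WSC1, listed as SLG1, and the sensors WSC2, WSC3 and MTL1 were blank in both replicates, and MID2 had 0.63 in replicate 1 only.

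Genes that keep mannosyltransferases in the Golgi were thinly measured, with both values for 4 of 10. VPS74, which holds these enzymes in the Golgi, had -0.23 and -0.12, and ERD1, needed to retain Golgi and ER proteins, had 0.17 and 0.34. COG5 and COG8, of the tethering complex for transport within the Golgi, had opposite signs in the 2 replicates.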
